A study of Mus musculus with 6 samples.

Results

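The 10 genes described here encode the muscle acetylcholine receptor and the proteins that build the neuromuscular junction, the synapse between motor nerve and muscle fibre. They were chosen by symbol, and all 10 were found among the 22036 genes of the deposited table. They comprise 4 receptor subunits (Chrna1, Chrnb1, Chrnd and Chrne), 4 genes of receptor clustering (Musk, Lrp4, Dok7 and Rapsn), and 2 of transmitter breakdown (Ache and Colq). The set was drawn up knowing that Chrna1 differed between the groups compared here. The difference of Chrna1 is therefore given as a description with no test, and the changes of the other 9 genes, which come from the same comparison, are described by their values and intervals. The question was whether Chrna1 stood apart alone or together with the rest of the junction.

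The libraries came from skeletal muscle of mice with a PRR14 knockout, labelled KO in both groups, 1 month after delivery of an adeno-associated virus (AAV). In 3 libraries, called MEF2C replicates 1, 2 and 3, the treatment was MEF2C-GFP (MEF2C is a transcription factor of the muscle lineage, and GFP a fluorescent marker protein), and in 3, called GFP replicates 1, 2 and 3, it was GFP alone. The labels name neither the muscle, the age, the promoter of the virus nor the cells in which Prr14 was deleted, and they do not say that replicates were separate animals, so that intervals and p-values describe the spread between these samples, which may be technical. Muscle with intact PRR14 was not analysed here.

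At the junction, nerve-derived agrin binds LRP4 on the muscle surface, and LRP4 activates the receptor tyrosine kinase MuSK. DOK7 binds MuSK inside the fibre and keeps it active, and rapsyn then anchors acetylcholine receptors in a dense cluster below the nerve ending. The receptor of adult muscle is a channel built of alpha, beta, delta and epsilon subunits, of which the alpha subunit carries most of the acetylcholine binding site. In foetal or denervated rodent muscle the gamma subunit takes the place of epsilon, and subunit genes become active along the whole fibre instead of only in the nuclei below the synapse. Acetylcholinesterase, held in the cleft by the collagen tail ColQ, ends each signal.

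Promoter sequences are shown for the 3 receptor subunit genes that had both enough reads to be tested and an entry in RefSeq's table for GRCm38.p6, because the contrast between Chrna1 and its partner subunits is the main pattern below. Each runs 5′ to 3′ along the gene's strand from 250 bases before the annotated start to 50 bases after it, and capitals mark E-boxes (CANNTG, the motif bound by MyoD, myogenin and related factors, which reads the same on both strands). The windows lie at chr2:73580289-73580588 for Chrna1, chr11:69795888-69796187 for Chrnb1 and chr11:70619145-70619444 for Chrne, all on the minus strand.
Chrna1: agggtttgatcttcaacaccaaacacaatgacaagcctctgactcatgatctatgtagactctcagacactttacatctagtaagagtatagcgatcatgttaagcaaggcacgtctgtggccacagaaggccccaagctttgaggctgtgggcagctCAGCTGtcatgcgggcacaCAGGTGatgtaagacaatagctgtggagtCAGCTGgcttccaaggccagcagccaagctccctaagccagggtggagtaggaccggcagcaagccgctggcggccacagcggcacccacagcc
Chrnb1: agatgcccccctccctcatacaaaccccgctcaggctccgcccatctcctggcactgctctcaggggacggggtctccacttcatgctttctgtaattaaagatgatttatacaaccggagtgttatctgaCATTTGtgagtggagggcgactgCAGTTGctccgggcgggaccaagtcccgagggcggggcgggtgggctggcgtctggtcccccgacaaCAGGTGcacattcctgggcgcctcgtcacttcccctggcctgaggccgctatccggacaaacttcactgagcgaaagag
Chrne: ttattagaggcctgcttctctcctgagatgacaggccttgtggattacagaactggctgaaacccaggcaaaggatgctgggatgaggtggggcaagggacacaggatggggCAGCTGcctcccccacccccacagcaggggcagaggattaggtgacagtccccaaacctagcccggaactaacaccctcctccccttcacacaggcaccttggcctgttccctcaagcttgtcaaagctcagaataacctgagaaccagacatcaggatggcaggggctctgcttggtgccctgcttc
Chrna1 had 3 E-boxes, starting at positions -92, -73 and -44 relative to the annotated start, Chrnb1 had 3, at -119, -96 and -29, and Chrne had 1, at -138. At least 3 E-boxes were present in 17.6% of all 32851 promoter windows in the table, and at least 1 in 72.3%. Chrne also held the N-box CCGGAA, known from synapse-specific promoters, at -76, searched on both strands and present in 14.9% of all windows. In all, 6 of the 10 genes had an entry, with 7 windows because Dok7 had 2. The MEF2 consensus was found in 0 of these 7 windows, and in 3.19% of all. Chrnd, Lrp4, Rapsn and Colq had no entry.

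The libraries held 3370833 to 3900617 reads assigned to genes. Markers of the labelled tissue were abundant: the fibre genes Acta1, Ckm, Mb, Ttn, Des and Myh4 summed to 86620 to 98340 CPM (reads scaled to library size with TMM factors, in the usual unit CPM, used throughout) in the libraries labelled MEF2C and 103500 to 126400 CPM in the GFP libraries. Mef2c itself was at 234, 195.7 and 371.5 CPM in MEF2C replicates 1, 2 and 3, against 223, 261 and 236 CPM in GFP replicates 1, 2 and 3. Only replicate 3 lay above the GFP libraries, so that MEF2C replicates 1 and 2 are named here by their label alone. Whether RNA from the virus was counted as Mef2c is not stated, so these values may not measure delivery. Prr14 had 30, 23 and 20 reads in MEF2C replicates 1, 2 and 3, against 11, 12 and 15 reads in GFP replicates 1, 2 and 3, with groups that did not overlap (log2 fold change 0.72 ± 0.32, edgeR adjusted p = 0.856). As the deleted part of Prr14 is not given in the labels, these reads do not check the knockout. Granulocyte markers summed to 1264 CPM in MEF2C replicate 1 and 79.5 CPM in GFP replicate 3, with at most 7.72 CPM in the other 4 libraries.

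**Figure D1:**
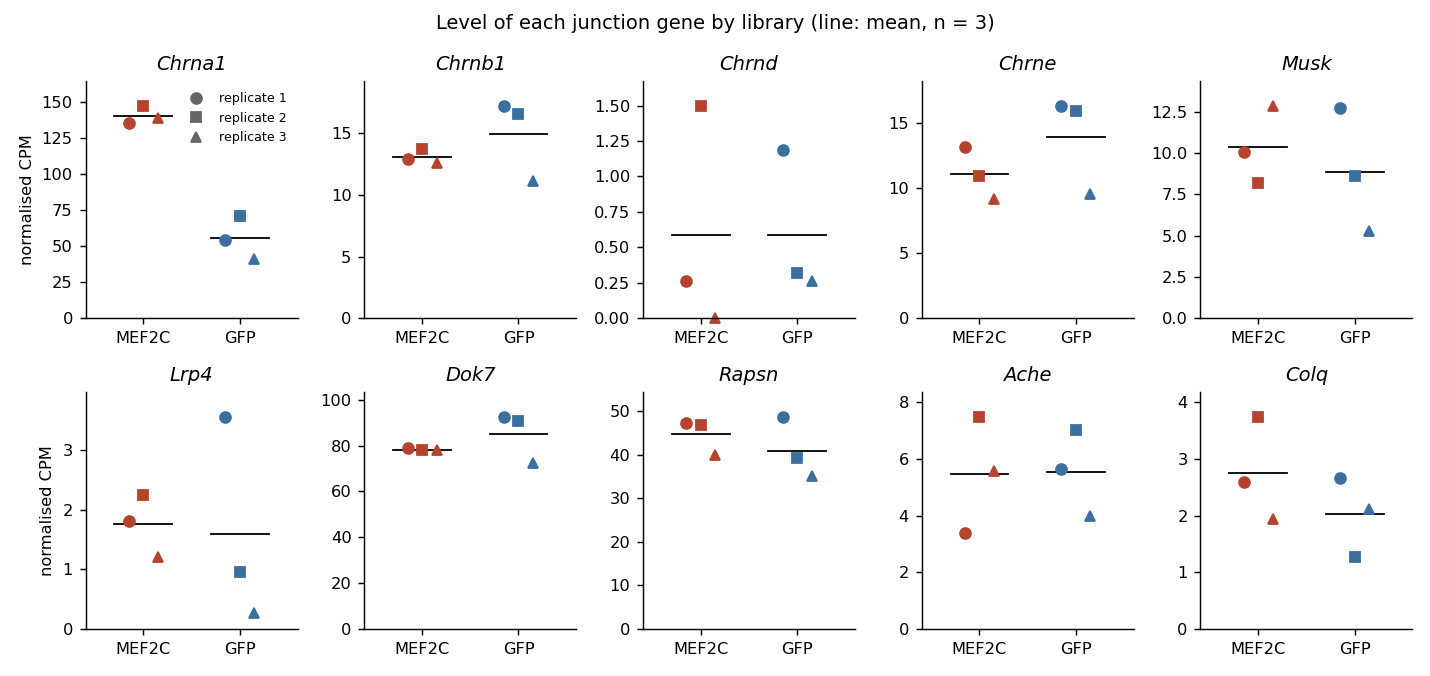
Normalised CPM (vertical axes, each from 0) of the 10 junction genes in the 3 libraries labelled MEF2C (red, left) and the 3 GFP libraries (blue, right), with marker shapes for replicates and a line at each group mean. Chrna1 is the gene whose groups do not overlap: its MEF2C libraries sit between 135 and 147 CPM and its GFP libraries between 40.8 and 71.2 CPM.

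Chrna1, the alpha subunit (ENSMUSG00000027107, GRCm38 chromosome 2, 73563215 to 73580338, minus strand, protein-coding), had 521, 589 and 574 reads in MEF2C replicates 1, 2 and 3, against 182, 223 and 154 reads in GFP replicates 1, 2 and 3. These were 135, 147 and 139 CPM in the libraries labelled MEF2C and 53.9, 71.2 and 40.8 CPM in the GFP libraries. All 3 MEF2C libraries stood close together and above every GFP library. The mean was 140 ± 5.95 CPM with MEF2C and 55.3 ± 15.2 CPM with GFP (SD, n = 3 each), a ratio of 2.54. The fitted log2 fold change of MEF2C over GFP was 1.35 ± 0.18 (SE), with a 95% interval of 0.97 to 1.72. In bulk tissue, a change in the number of fibres or nuclei that express a gene and a change in RNA per cell cannot be told apart.

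Other features of the 3 MEF2C libraries are given here beside their Chrna1 values. MEF2C replicate 3 had the highest Mef2c and the lowest slow-fibre signal of its group, and MEF2C replicate 1 held the granulocyte RNA. The 8 slow-fibre genes listed (Atp2a2, Myh7, Tnnc1, Tnni1, Myl2, Tpm3, Tnnt1 and Myl3) summed to 1608, 1556 and 376 CPM in MEF2C replicates 1, 2 and 3 and to 163, 141 and 210 CPM in GFP replicates 1, 2 and 3. Without MEF2C replicate 3 the log2 fold change of Chrna1 was 1.35, and without MEF2C replicate 1 it was 1.37. All 3 MEF2C libraries lay above every GFP library in the slow-fibre sum, so that leaving 1 of them out does not separate fibre type from group. The part of fibre type or of other cells in the Chrna1 difference was not tested.

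Chrnb1, the beta subunit (ENSMUSG00000041189, chromosome 11, 69784036 to 69795943, minus strand), did not share the pattern. It was at 12.95, 13.7 and 12.6 CPM in MEF2C replicates 1, 2 and 3, against 17.2, 16.6 and 11.1 CPM in GFP replicates 1, 2 and 3. The 3 MEF2C values lay inside the GFP range. The log2 fold change was -0.19 ± 0.22, with a 95% interval of -0.66 to 0.29.

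Chrne, the epsilon subunit that marks the adult receptor (ENSMUSG00000014609, chromosome 11, 70614883 to 70619216, minus strand), was at 13.2, 10.96 and 9.20 CPM in MEF2C replicates 1, 2 and 3, against 16.3, 15.95 and 9.54 CPM in GFP replicates 1, 2 and 3. The groups overlapped, with GFP replicate 3 near the lower end of the MEF2C libraries. Its log2 fold change was -0.32 ± 0.25, with an interval of -0.86 to 0.22.

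The delta subunit was scarcely detected. Chrnd (ENSMUSG00000026251, chromosome 1, 87190607 to 87200070, plus strand) had 1, 6 and 0 reads in MEF2C replicates 1, 2 and 3, against 4, 1 and 1 reads in GFP replicates 1, 2 and 3. It did not pass the filter on low counts. Pooled over a group, this was 0.583 CPM with MEF2C (95% exact Poisson interval 0.234 to 1.20, for counting error only) and 0.584 CPM with GFP (0.214 to 1.27). The foetal gamma subunit Chrng, no member of the set, had 1 read in MEF2C replicate 3 and 0 in the other 5 libraries, where a count of 0 allows up to 3 reads, or 0.747 to 0.957 CPM. Within these bounds, a difference in Chrnd or Chrng was not detectable at this depth.

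Within the receptor, reads shifted towards the alpha subunit. Chrna1 made up 83.6%, 84.9% and 86.5% of the reads of the 4 subunit genes in MEF2C replicates 1, 2 and 3, against 60.9%, 68.4% and 66.1% in GFP replicates 1, 2 and 3. The lowest 95% bound of a MEF2C library was 80.5% and the highest bound of a GFP library was 73.4% (Clopper-Pearson, counting error only). This share does not depend on library size. For each read of Chrnb1, Chrnd or Chrne there were 5.70 ± 0.64 reads of Chrna1 in the libraries labelled MEF2C and 1.89 ± 0.309 in the GFP libraries (SD, n = 3 each). The proportion of Chrnb1 to Chrne overlapped between groups, at 1.20 ± 0.199 Chrnb1 reads for each Chrne read with MEF2C and 1.09 ± 0.0694 with GFP. The 3 partner subunits together had 102, 105 and 90 reads in MEF2C replicates 1, 2 and 3. In GFP replicates 1, 2 and 3 they had 117, 103 and 79 reads. Scaled to library size, these were 26.4, 26.15 and 21.8 CPM with MEF2C and 34.7, 32.9 and 20.9 CPM with GFP. The groups overlapped, with a ratio of means of 0.84. On the CPM scale, Chrna1 was thus higher with MEF2C and the mean of its partners lower. Since Chrna1 chose the set, its share and its ratio to the partners are also descriptions.

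**Figure D2:**
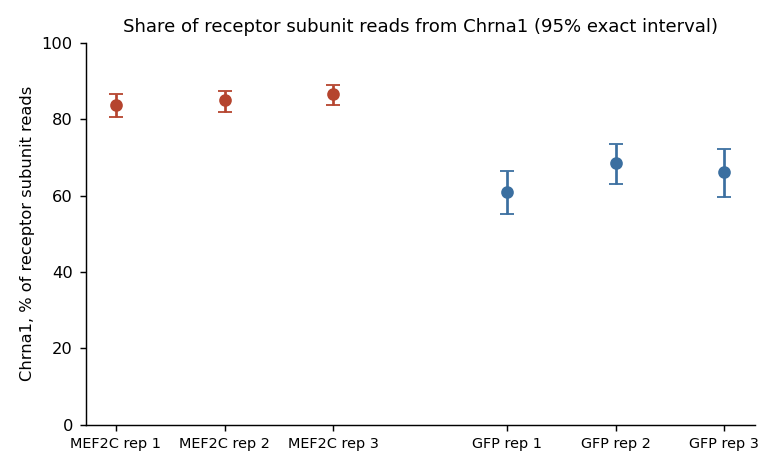
Share of receptor subunit reads (Chrna1, Chrnb1, Chrnd and Chrne together) that came from Chrna1, in percent, for each library; points are shares and bars are exact 95% binomial intervals. The MEF2C libraries (red) sit between 83.6% and 86.5% and the GFP libraries (blue) between 60.9% and 68.4%.

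The genes of receptor clustering all had groups that overlapped. Musk, the receptor tyrosine kinase (ENSMUSG00000057280, chromosome 4, 58285960 to 58374303, plus strand), was at 10.1, 8.22 and 12.8 CPM in MEF2C replicates 1, 2 and 3, against 12.7, 8.62 and 5.30 CPM in GFP replicates 1, 2 and 3. The GFP libraries spanned the wider range and covered nearly all of the MEF2C values. The log2 fold change was 0.23 ± 0.31, with an interval of -0.42 to 0.89. It became 0.58 without GFP replicate 1 and -0.05 without GFP replicate 3.

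Dok7, the adaptor that keeps MuSK active (ENSMUSG00000044716, chromosome 5, 35056766 to 35087839, plus strand), had the tightest values of the set. It was at 78.8, 78.0 and 77.9 CPM in MEF2C replicates 1, 2 and 3, against 92.4, 90.9 and 72.4 CPM in GFP replicates 1, 2 and 3. The MEF2C libraries fell inside the GFP range. Its log2 fold change of -0.12 ± 0.14 had an interval of -0.42 to 0.18, the narrowest among the 7 tested genes.

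Rapsn, which encodes the receptor anchor rapsyn (ENSMUSG00000002104, chromosome 2, 91035620 to 91045729, plus strand), was at 47.2, 46.8 and 39.9 CPM in MEF2C replicates 1, 2 and 3, against 48.6, 39.2 and 35.0 CPM in GFP replicates 1, 2 and 3. The groups overlapped across most of their range. Its log2 fold change was 0.13 ± 0.16, with an interval of -0.22 to 0.47. Per read of Chrnb1, Chrnd or Chrne there were 1.78, 1.79 and 1.83 Rapsn reads in MEF2C replicates 1, 2 and 3. In GFP replicates 1, 2 and 3 there were 1.40, 1.19 and 1.67, so that the groups of this ratio did not overlap. This ratio was singled out after its values were seen. Rapsn and an antisense transcript, Gm13778, share 4 exonic bases in GENCODE vM21.

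Lrp4, the agrin receptor (ENSMUSG00000027253, chromosome 2, 91457511 to 91513779, plus strand), had 7, 9 and 5 reads in MEF2C replicates 1, 2 and 3, against 12, 3 and 1 reads in GFP replicates 1, 2 and 3. It was not tested. The pooled level was 1.75 CPM with MEF2C (exact Poisson interval 1.08 to 2.67) and 1.56 CPM with GFP (0.889 to 2.53), and GFP replicate 1 alone gave 12 of the 16 GFP reads. The longest coding transcript of Lrp4, 7926 bases, is also the longest of the set.

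Both genes of the synaptic cleft had groups that overlapped. Ache, acetylcholinesterase (ENSMUSG00000023328, chromosome 5, 137287519 to 137294466, plus strand), had 13, 30 and 23 reads in MEF2C replicates 1, 2 and 3, against 19, 22 and 15 in GFP replicates 1, 2 and 3. This gave 3.37, 7.47 and 5.57 CPM with MEF2C and 5.63, 7.02 and 3.98 CPM with GFP, where both the highest and the lowest library carried the MEF2C label. The log2 fold change was -0.0017 ± 0.36, with an interval of -0.77 to 0.77. Ache shares 98 exonic bases with the antisense lincRNA Gm42456, and since the use of strand in counting is not stated, their reads cannot be told apart there.

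Colq, the collagen tail of the enzyme (ENSMUSG00000057606, chromosome 14, 31523082 to 31591343, minus strand), had 10, 15 and 8 reads in MEF2C replicates 1, 2 and 3, against 9, 4 and 8 reads in GFP replicates 1, 2 and 3. It was not tested. Pooled levels were 2.75 CPM with MEF2C (1.89 to 3.86) and 2.04 CPM with GFP (1.26 to 3.12), and the intervals overlapped. Colq shares 199 exonic bases with Gm49387, a gene of the same strand listed at 0 reads in every library.

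**Figure D3:**
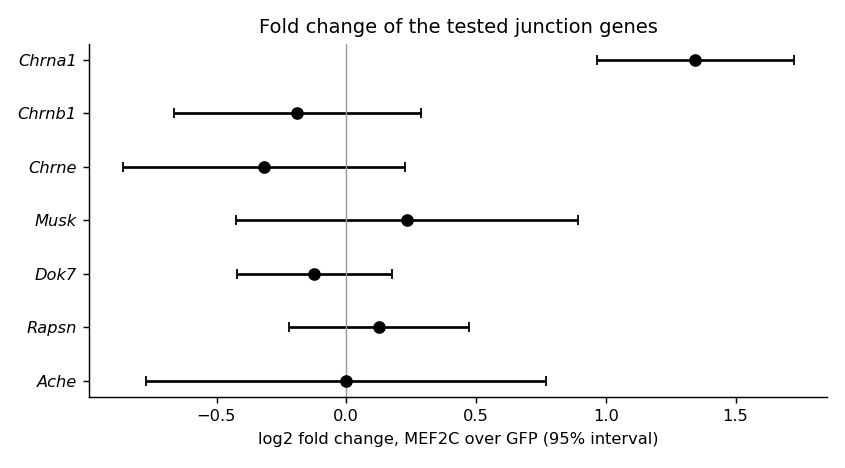
Log2 fold change of MEF2C over GFP (horizontal axis; points, with 95% intervals from edgeR's quasi-likelihood fit) for the 7 junction genes that passed the filter on low counts. The interval of Chrna1 begins at 0.97, and those of the other 6 genes all include 0 and end at 0.89 or lower in this fit.

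Of the 10 genes, 7 passed the filter on low counts, and 1 lay past a Benjamini-Hochberg adjusted p of 0.05 over the whole table (edgeR), namely Chrna1, for whose difference the set was drawn up. Of all 9229 genes tested, 7 were called (0.0758%), 3 of them higher (0.0325%) and 4 lower (0.0433%), and 5.71% had an unadjusted p under 0.05. DESeq2 called 0.463% of the 4752 genes to which it gave an adjusted p. The count of 1 is therefore given only beside these shares, and nothing is read from it. Groups that did not overlap were found for 1 of the 7 tested members and for 11.1% of all tested genes, 5.75% being higher with MEF2C. The other 6 tested members had log2 fold changes between -0.32 and 0.23, with a median of -0.06, beside a median of 0.01 over all tested genes. Intervals this wide do not show that these 6 genes were equal between groups: over the 6 they reach from -0.86 to 0.89. The 9 genes other than Chrna1 summed to 168 ± 6.01 CPM in the libraries labelled MEF2C and 174 ± 30.8 CPM in the GFP libraries (SD, n = 3 each). Most of each sum was Dok7 (78.2 CPM with MEF2C and 85.2 CPM with GFP) and Rapsn (44.6 and 40.9 CPM). It therefore says little about the rarer members.

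Levels of different genes were compared per kilobase of the longest coding transcript. In the libraries labelled MEF2C, Chrna1 had the highest level, 32.0 ± 1.36 CPM per kb, followed by Dok7 at 28.1 ± 0.173 and Rapsn at 27.8 ± 2.54 (SD, n = 3). The lowest Chrna1 library lay above the highest Dok7 library, while Dok7 and Rapsn overlapped. In the GFP libraries Dok7 was highest at 30.7 ± 4.03 CPM per kb, Rapsn overlapped with it at 25.5 ± 4.33 and Chrna1 came next at 12.6 ± 3.47 (SD, n = 3). On this scale Chrna1 lay below every Rapsn value there and overlapped with Chrne. This order depends on the division by length, which may not suit Nanopore cDNA reads, where 1 read can stand for 1 transcript. In undivided CPM the GFP libraries had 55.3 ± 15.2 of Chrna1 and 40.9 ± 6.96 of Rapsn, with overlapping ranges, and 13.9 ± 3.81 of Chrne, below every Chrna1 value (SD, n = 3). Below these, the order was the same in both groups: Chrne at 6.88 and 8.62 CPM per kb in MEF2C and GFP libraries, Chrnb1 at 6.07 and 6.95, Musk at 3.03 and 2.60, Ache at 2.5 and 2.53, Colq at 0.961 and 0.705, Lrp4 at 0.221 and 0.201, and Chrnd at 0.198 and 0.200. Among them, Chrne and Chrnb1, Musk and Ache, and Lrp4 and Chrnd overlapped in both groups, as did Colq and Lrp4 in the GFP libraries. Chrnd had the lowest mean of the set in both groups, and whether the mapping or annotation of its reads had a part in this was not tested.

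A second pattern lay within the GFP group, and it was singled out after its values were seen. GFP replicate 3 had the lowest level of the 3 GFP libraries for 9 of the 10 genes, the exception being Colq, and GFP replicate 1 had the highest for 8, the exceptions being Chrna1 and Ache. For Chrnd and Lrp4 this order rests on 1 read in GFP replicate 3, and for Chrnd GFP replicate 2 also had 1 read. Among the 7 tested members GFP replicate 3 was lowest for 7 and GFP replicate 1 highest for 5, beside 30.1% and 38.4% of all tested genes. The ratio of GFP replicate 1 to GFP replicate 3 was 2.40 for Musk, 1.71 for Chrne, 1.54 for Chrnb1, 1.42 for Ache, 1.39 for Rapsn, 1.32 for Chrna1 and 1.28 for Dok7 among tested members, and 1.26 for Colq. With plain library totals in place of TMM the same counts of 9 and 8 genes were found. Among the GFP libraries, the read-weighted mean length of the longest annotated transcript was 2556 bases in replicate 1, 2361 in replicate 2 and 2388 in replicate 3. The part of transcript length in this order was not tested. Among the MEF2C libraries, replicate 2 was highest for 6 genes and replicate 3 lowest for 7, and these counts were 7 and 5 with plain library totals.

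**Figure D4:**
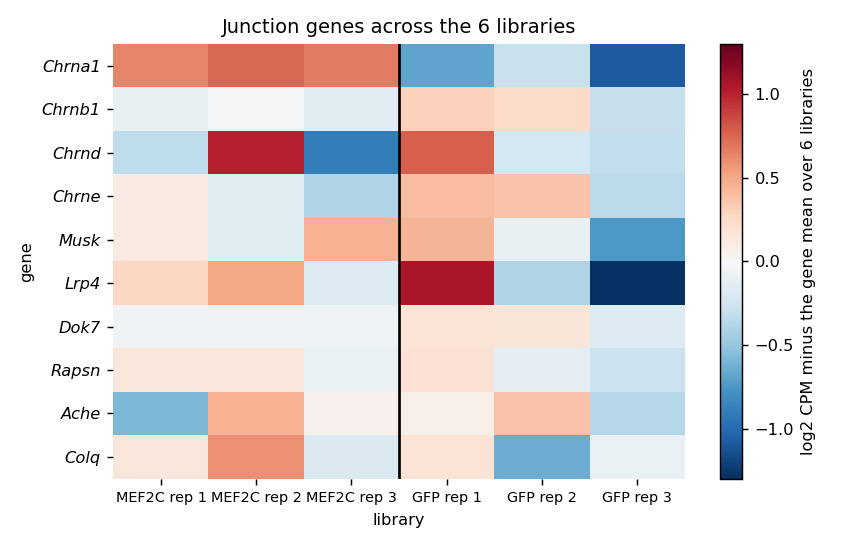
Log2 CPM of each junction gene minus its own mean over the 6 libraries (colour; rows are genes, columns are libraries, MEF2C left of the line and GFP right of it). Chrna1 is above its mean in all 3 MEF2C libraries and below it in all 3 GFP libraries, while GFP replicate 3 is the lowest GFP library for 9 of the 10 genes.

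Because GFP replicate 3 was low for most of the set, the comparison was repeated without it. The log2 fold change of Chrna1 was then 1.16, and the largest of the other 6 tested members was 0.02. Chrna1 was no longer called by edgeR without GFP replicate 3, GFP replicate 1 or MEF2C replicate 2. Across 15 fits, the log2 fold change of Chrna1 stayed between 1.16 and 1.56, and none of the 6 members tested beside it with all libraries went above 0.58. Colq, tested in 5 of these fits, reached 0.63 without MEF2C replicate 3. As Chrna1 chose the set and the 15 fits share libraries, the next comparison is a description and no test of separation. The 95% interval of Chrna1 began below the highest upper bound of those 6 members in 5 of the 15 fits. These were the DESeq2 Wald test (0.93 against 0.97), limma-voom (0.99 against 1.01), and the fits without MEF2C replicate 1 (0.95 against 0.99), MEF2C replicate 2 (0.87 against 1.10) and GFP replicate 1 (0.85 against 1.26).

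The 5 genes most like Chrna1 over the 6 libraries were not among the 10 of the set. Likeness was the root mean square difference between mean-centred log2 CPM profiles. It was taken over 6987 tested genes with a mean of at least 20 reads, leaving out predicted-gene and clone names. Ccl21a, a chemokine of lymphatic vessels, was closest at 0.208, with 94.3, 81.4 and 77.2 CPM in MEF2C replicates 1, 2 and 3, against 24.6, 45.9 and 27.6 CPM in GFP replicates 1, 2 and 3. Its reads are uncertain, as near-identical copies exist. Next were Homer2, a postsynaptic scaffold protein (0.287), Pygl, the liver form of glycogen phosphorylase (0.297), Sctr, the secretin receptor (0.304), and Nsg1, a neuronal endosomal protein (0.306). Homer2 was at 8.81, 10.2 and 10.65 CPM in MEF2C replicates 1, 2 and 3, against 5.63, 7.34 and 3.71 CPM in GFP replicates 1, 2 and 3. Chrnd, Lrp4 and Colq were not tested and so not ranked. Of the 6 other members of the set, the closest was Musk, at rank 1016, followed by Rapsn at 1175. Chrne was at rank 5713 of the 6987. As Chrna1 was chosen for its group difference, these ranks largely restate that difference and are a description.

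Genes around the set were then examined as lists. With 0.0758% of all tested genes called by edgeR, a count of 0 in a list of this size says little about the list. Of 21 partners of the postsynaptic membrane and synaptic basal lamina, 19 were tested and 0 were called by edgeR, with 11 positive and 8 negative log2 fold changes and a median of 0.12, beside 0.01 over all genes. Syne1, which anchors nuclei below the synapse, was at 15.3, 11.7 and 15.5 CPM in MEF2C replicates 1, 2 and 3, against 13.6, 9.89 and 6.10 CPM in GFP replicates 1, 2 and 3. Its log2 fold change was 0.53 ± 0.27 (edgeR adjusted p = 0.928), and that of Apc, a microtubule-binding protein found with clustered receptors, was 0.56 ± 0.30 (edgeR adjusted p = 0.928). Both had overlapping groups, and within the GFP libraries Syne1 was highest in replicate 1 and lowest in replicate 3, as most junction genes were.

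Genes of the neuregulin pathway and the ETS factors that bind N-boxes were tested in 3 of 8 cases, with 0 called by edgeR. Gabpa, the ETS factor of the N-box, was at -0.31 ± 0.21 on the log2 scale (edgeR adjusted p = 0.948) and Etv5, an ETS factor of synaptic nuclei, 0.11 ± 0.28 (edgeR adjusted p = 0.993). The groups of Gabpa did not overlap, which held for 1 of the 3 tested genes. Of 8 genes for glycosylation and assembly of the receptor, 6 were tested and 0 called by edgeR, with 5 negative changes and a median of -0.22. Gfpt1, the first enzyme of the hexosamine pathway, was at 9.07, 8.72 and 9.92 CPM in MEF2C replicates 1, 2 and 3, against 14.2, 13.4 and 11.1 CPM in GFP replicates 1, 2 and 3. Its groups did not overlap, and its log2 fold change was -0.48 ± 0.22 (edgeR adjusted p = 0.871). Alg2, a mannosyltransferase, had a log2 value of -0.51 ± 0.28 (edgeR adjusted p = 0.928). Its groups did not overlap either, making 2 of the 6 tested genes of this list, beside 11.1% of all tested genes.

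The subunit genes are among those known to rise in denervated rodent muscle, so the other genes of that response were listed. Of 13 genes, 8 were tested and 0 called by edgeR, with 3 positive and 5 negative changes and a median of -0.06. The list summed to 818.5, 932 and 554 CPM in MEF2C replicates 1, 2 and 3. In GFP replicates 1, 2 and 3 it summed to 458, 397 and 304 CPM, below every MEF2C sum. Much of each sum was Sln, Trim63 and Fbxo32, the 3 genes with positive changes. Fbxo32 was at 0.83 ± 0.65 and Trim63 at 0.49 ± 0.41 on the log2 scale, both with overlapping groups (edgeR adjusted p = 0.989 and 0.993). Sln, the calcium pump regulator sarcolipin, was at 232, 675 and 160 CPM in MEF2C replicates 1, 2 and 3, against 73.5, 110 and 40.8 CPM in GFP replicates 1, 2 and 3, with groups that did not overlap. Its log2 fold change was 2.25 ± 0.77 (edgeR adjusted p = 0.856), and 1.39 without MEF2C replicate 2, its highest library. On the log2 fold change scale, Myod1, the myogenic factor, was at -0.75 ± 0.35 (edgeR adjusted p = 0.875) and Myog, myogenin, at -0.15 ± 0.24 (edgeR adjusted p = 0.993). Both factors are known to bind E-boxes of subunit promoters. Myod1 was at 6.74, 5.48 and 13.3 CPM in MEF2C replicates 1, 2 and 3, against 19.5, 13.4 and 10.3 CPM in GFP replicates 1, 2 and 3. Myog was at 21.5, 45.3 and 35.1 CPM in MEF2C replicates 1, 2 and 3, against 33.2, 44.7 and 35.8 CPM in GFP replicates 1, 2 and 3, where the lowest of the MEF2C libraries, replicate 1, lay below all others. Both means were lower in the libraries labelled MEF2C, within overlapping ranges, and Chrng, a defining gene of denervated fibres, was at or near 0 throughout.

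**Figure D5:**
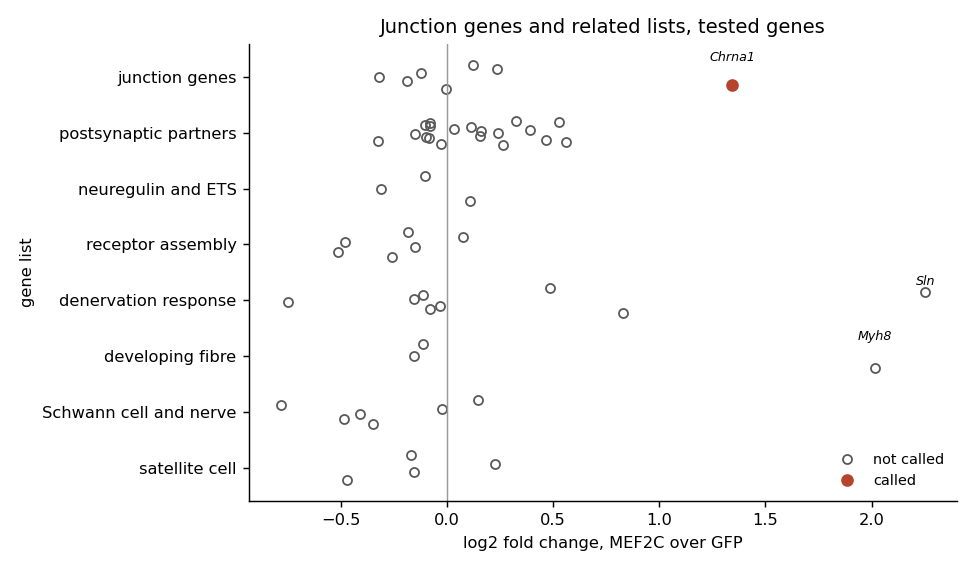
Log2 fold change of MEF2C over GFP (horizontal axis) for each tested gene of the junction set and of related lists (rows; the filled point, Chrna1, has an edgeR adjusted p under 0.05, and open points do not). Chrna1, for whose difference the set was drawn up, is at 1.35 as a description, and Sln and Myh8 lie further right, at 2.25 and 2.01. The slow-fibre, granulocyte, fibre-marker and neuronal subunit lists are not drawn.

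Markers of newly formed fibres gave no call either, with 3 of 7 genes tested. Myh8, the perinatal myosin, had 15, 24 and 19 reads in MEF2C replicates 1, 2 and 3, against 3, 5 and 4 reads in GFP replicates 1, 2 and 3, 2.01 ± 0.42 on the log2 scale (edgeR adjusted p = 0.160). Its groups did not overlap. The list as a whole, most of it Myog, summed to 32.6, 59.5 and 48.6 CPM in MEF2C replicates 1, 2 and 3 and to 44.7, 53.0 and 43.5 CPM in GFP replicates 1, 2 and 3, and the embryonic myosin Myh3 had at most 4 reads in any library.

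Schwann cells cover the nerve ending, and their markers were listed with axon genes. Of 11 genes 6 were tested and 0 called by edgeR, with 5 negative changes and a median of -0.38. As log2 fold changes, Prx, periaxin of myelin, was at -0.78 ± 0.34 (edgeR adjusted p = 0.856) and Mbp, myelin basic protein, at -0.35 ± 0.19 (edgeR adjusted p = 0.928). The groups of Prx did not overlap, which held for 1 of the 6 tested genes, beside 11.1% of all tested genes. The list summed to 222 to 335 CPM in the libraries labelled MEF2C and to 296 to 343 CPM in the GFP libraries, and Nefl, a defining axon gene, was at 0 in all 6. Satellite cell markers were tested in 4 of 6 cases, with 0 called by edgeR, and summed to 30.2 to 35.5 CPM with MEF2C and 35.3 to 37.1 CPM with GFP. As log2 fold changes, Cdh15, a cadherin, was at -0.47 ± 0.28 (edgeR adjusted p = 0.928) and Sdc4, a syndecan, at 0.22 ± 0.27 (edgeR adjusted p = 0.993).

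Over all 11 lists besides the junction set, 64 of 105 genes were tested and 0 were called by edgeR, beside 0.0758% of all tested genes. Of the 64, 13 had an unadjusted p under 0.05 in edgeR, 8 of them slow-fibre genes, beside 5.71% of all tested genes. DESeq2 called 5 of the listed genes, all of slow fibres, beside 0.463% of all genes to which it gave an adjusted p. The slow-fibre and granulocyte lists were known from earlier work on these libraries to differ, and their direction is no independent evidence. All 8 slow-fibre genes had groups that did not overlap, beside 11.1% of all tested genes, with a median log2 fold change of 3.55. On that scale Atp2a2 was at 1.21 ± 0.23 (edgeR adjusted p = 0.120) and Myl3 at 3.51 ± 0.82 (edgeR adjusted p = 0.749). Of the granulocyte genes, also as log2 fold changes, Lcn2 was at 2.85 ± 1.66 and S100a8 at 3.79 ± 2.71 (edgeR adjusted p = 0.951 and 0.976), and without MEF2C replicate 1 they were at 0.28 and -2.68. Among the fibre markers the log2 fold change of Acta1, skeletal actin, was -0.39 ± 0.13 and that of Myh4, the fast myosin, -0.30 ± 0.15 (edgeR adjusted p = 0.715 and 0.904). Groups did not overlap for Acta1 and Ckm, 2 of the 6 fibre markers.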

How the data were processed

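Read counts per gene from 6 Nanopore PCR-cDNA libraries were used as deposited. Per the file headers, the authors' table gives counts and CPM, and the deposited CPM were not used in any test. Per the submitters' processing notes, minimap2, DESeq2 1.6.3 and GRCm38 were used, with no roles given. For the counting tool, annotation and strand setting, nothing is stated. Per the labels' protocols the cDNA was amplified by PCR, and no molecular identifiers are named. Copies of a single molecule may therefore count as separate reads. The exact Poisson and binomial intervals cover counting error only, with each read taken as independent. Intervals of log2 fold changes also take in the spread between libraries. The 30 rows naming no gene held 0 counts and were left out.

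Genes were tested with edgeR 4.0.16 (R 4.3.3): filter by group, TMM, quasi-likelihood with robust dispersion, no covariate, Benjamini-Hochberg over 9229 genes. Normalised CPM used TMM-scaled totals of listed counts, and centred log2 CPM a prior count of 2. Alternatives were DESeq2 1.42.0 size factors, the DESeq2 Wald test, limma-voom (limma 3.58.1), library totals, no filter, a strict filter (at least 1 CPM in 3 libraries, a mean of at least 20 counts), non-robust dispersion, a replicate block, and leaving out each library. The edgeR, limma-voom and DESeq2 fits were run on counts simulated with the same dispersion for every gene. This checked median fold changes, and does not vouch for calls or intervals in these libraries. Same-group libraries differed beyond sampling noise (chi-square per degree of freedom 4.95 to 10.3).

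Coordinates and transcript lengths came from GENCODE vM21 (GRCm38) and promoters from RefSeq (GRCm38.p6). The members and lists were chosen with earlier results of these data known. Named genes were the 10 members, Chrng, Mef2c and Prr14, called genes of each list or else up to 2 with the smallest unadjusted p, and the 5 genes most like Chrna1. Other genes in the text were chosen after their values were seen.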

Additional observations from a re-analysis of the deposited data

How the results depend on the processing

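The log2 fold change of Chrna1 lay between 1.16 and 1.56, its log2 ratio to the other subunits between 1.47 and 1.70 (1.6 with all libraries), and the median of the 10 junction genes between -0.18 and 0.23 (0.04 with all libraries), each moving by less than the spread between replicates under every alternative run for it. Calls depended more on the setting. With all libraries edgeR called 7 genes. The count was 35 with no low-count filter, 3 with the strict filter, 22 with the DESeq2 Wald test, 3 with limma-voom, 0 with non-robust dispersion (557 at an unadjusted p under 0.05) and 0 to 22 when 1 library was left out: 22 without MEF2C replicate 3, 0 without GFP replicate 3 (386 at an unadjusted p under 0.05), and 1 to 3 without any of the other 4. The count of junction genes called, 1, was 0 with non-robust dispersion and 0 to 1 when 1 library was left out (0 without MEF2C replicate 2, GFP replicate 1 or GFP replicate 3). In the other lists the count of 0 became 2 with no filter (Atp2a2 and Myh8), 5 with DESeq2, and 0 to 4 when 1 library was left out (4 without MEF2C replicate 3). The cause was not tested. With a replicate block edgeR called 2 genes, and in the other lists 1 (Sln). Same-numbered libraries did not deviate together, with correlations of -0.235, 0.048 and -0.251, while MEF2C replicate 3 and GFP replicate 1 had 0.32. With so few libraries, these values do not settle whether equal numbers mark pairs. With library totals the median over all genes was 0.14 in place of 0.01. Some junction genes changed sign: over 15 fits, log2 fold changes ran from -0.29 to 0.24 for Ache, -0.23 to 0.0057 for Dok7 and -0.046 to 0.58 for Musk. Among genes of the other lists that were not called, Chrna9 turned to 0.055 with limma-voom and Etv5 to -0.033 without GFP replicate 3. Without MEF2C replicate 1, Myog turned to 0.083, Sdc4 to -0.071 and S100a8 to -2.68. Chrna9 was also positive without MEF2C replicate 2 (0.011) and without GFP replicate 2 (0.67). When 1 library was left out, log2 fold changes ran from -0.61 to 0.67 for Chrna9, -0.033 to 0.198 for Etv5, -0.42 to 0.083 for Myog, -0.071 to 0.41 for Sdc4 and -2.68 to 6.91 for S100a8. Chrnd and Lrp4 were tested only with no filter, at -0.02 and 0.14. Low counts limit Chrnd, Chrng, Lrp4 and Colq, which were not tested with all libraries under the filter.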

Other observations

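Among 11 nicotinic subunit genes of neurons and other cells, 7 had 0 reads in all 6 libraries, and Chrna9, an alpha subunit best known from inner ear hair cells, was the only one tested. Chrna9 was at 11.7, 11.2 and 23.5 CPM in MEF2C replicates 1, 2 and 3, against 7.11, 33.5 and 12.2 CPM in GFP replicates 1, 2 and 3. The groups overlapped, at -0.17 ± 0.67 on the log2 scale (edgeR adjusted p = 0.993), and the highest library was GFP replicate 2.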
